A study of Mus musculus with 4 samples.

Results

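The genes described here are cytokines, growth factors and their receptors that KEGG, a public catalogue of pathways, lists under Cytokine-cytokine receptor interaction. They were taken from the KEGG column that the authors added to their table of 34745 mouse genes. Of the 253 genes with that term, 74 were set aside by name, namely most chemokines and their receptors, the colony stimulating factors, genes named Vegf and a few further genes, which left 179 members. The further genes set aside are the ligands Il1b, Il18, Il1rn, Il1f9 and Il10 and the receptors Flt1, Ifnar1, Ifnar2, Tnfrsf11a (the receptor for RANKL), Tnfrsf1a, Tnfrsf1b and Cd40. Of the 179 members, 84 encode ligands, 83 encode receptors or receptor subunits, 3 are chemokine-type genes whose names escaped the exclusion, and 9 belong to no family used here. The rule uses names and KEGG terms and no measured value, although it was written with earlier results of these data known. The table lists Il11ra2 under a pair of identifiers, both at 0 counts.

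Cytokines are secreted or surface-bound proteins that carry signals between cells. Most interleukin receptors pair a chain that binds its ligand with a chain shared by several cytokines and signal through Janus kinases and STAT proteins, TNF-type receptors recruit TRAF adaptors, TGF-beta receptors phosphorylate SMAD proteins, and growth factor receptors such as Met and Kdr are tyrosine kinases. In macrophages that become osteoclasts, the TNF-type ligand RANKL drives the change, and other cytokines are known to promote it (TNF) or to restrain it (IL-4, the interferons).

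The study asked how dimethyl itaconate (DI), a membrane-permeable ester of the macrophage metabolite itaconate, acts on osteoclast formation. Bone marrow derived macrophages (BMMs) were grown from wild-type male C57BL/6 mice aged 8 weeks, kept without serum for 12 h and then given RANKL at 100 ng/mL in complete medium for 24 h, together with DI (RANKL+DI) or vehicle (RANKL+Veh). Both groups therefore received RANKL, and no group without it was analysed here. The vehicle is named DMSO in the sample titles. The labels give the dose of DI as 20 mM. The methods of the study give the same figure in μM, the unit of its other cell culture doses of DI. There were 2 libraries in each group, with 17843712 and 19403480 counts in RANKL+DI and 17979114 and 16085692 in RANKL+Veh. The methods of the study say in general that in vitro work was repeated independently, with more repeats than the 2 libraries here, and do not say whether the libraries of a group came from separate mice or cultures, so p-values measure only the spread between these libraries, which may be technical.

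The libraries carried the RNA of macrophages. The summed level of 8 macrophage markers, listed as 9 entries because Itgam has a pair of identifiers, was 28619 and 29413 CPM (counts scaled to the depth of each library) with DI and 23266 and 22422 CPM with vehicle, and 5 of the entries were higher and 2 lower with DI. The part of this difference in the results below was not tested. The summed level of the B cell list lay between 0.116 and 0.600 CPM with Pax5 at 0, that of the T and NK cell list between 0.240 and 0.699 CPM with Cd3e, Cd3g, Cd8a, Ncr1 and Nkg7 at 0, that of the neutrophil list between 7.89 and 9.90 CPM with Ly6g and Retnlg at 0, that of the mast cell and basophil list between 0 and 0.06 CPM, and that of the stromal list between 39.4 and 49.7 CPM with Lum at 0. Of the markers of these other cell types 8 were tested and 0 passed in edgeR or in DESeq2, with 1 (S100a8, higher) at an unadjusted p under 0.05. In bulk RNA, fewer cells that express a gene and less of its RNA per cell cannot be told apart.

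Enough reads to test were present for 72 of the 179 members, among 12590 tested genes. With edgeR's quasi-likelihood test and an adjusted p under 0.05, adjusted over all tested genes, 13 members differed between the groups, 7 higher and 6 lower with DI. That is 18.1% of the tested members, against 14.8% of all tested genes, of which 7.14% were higher and 7.70% lower. An unadjusted p under 0.05, given for some lists in this report, was met by at least 14.8% of all tested genes. The exact share was not counted, so those counts are no sign of a shift in a list. The receptors Il4ra, Il7r, Met, Tnfrsf21 and Il11ra1, the ligand Tgfb1 and the chemokine-type gene Pf4 rose with DI. The receptors Tnfrsf9, Relt, Kdr and Il2rg and the ligands Tnfsf10 and Pdgfa fell. By role, 9 of 47 tested receptors and 3 of 24 tested ligands passed.

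The changes were of moderate size. The median log2 fold change (RANKL+DI over RANKL+Veh) was 0.04 over the tested members and 0.00 over all tested genes, and 40 of the 72 lay within 0.25 of 0 on the log2 scale. Among the genes that passed the test, the median absolute log2 fold change was 0.56 for the 13 members and 0.43 for all 1868 genes. The RANKL+DI and RANKL+Veh libraries did not overlap in CPM for 42 members (58.3%), which is close to the 58.6% of all tested genes. With scaling by library size only, which moved the median of all genes to -0.10, 18 members passed, 5 higher and 13 lower. Over all genes, 2479 passed with that scaling, against 1868 in the main fit. Without RANKL+Veh replicate 2, 8 members passed, and without RANKL+Veh replicate 1 the count of lower members was 3.

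**Figure D1:**
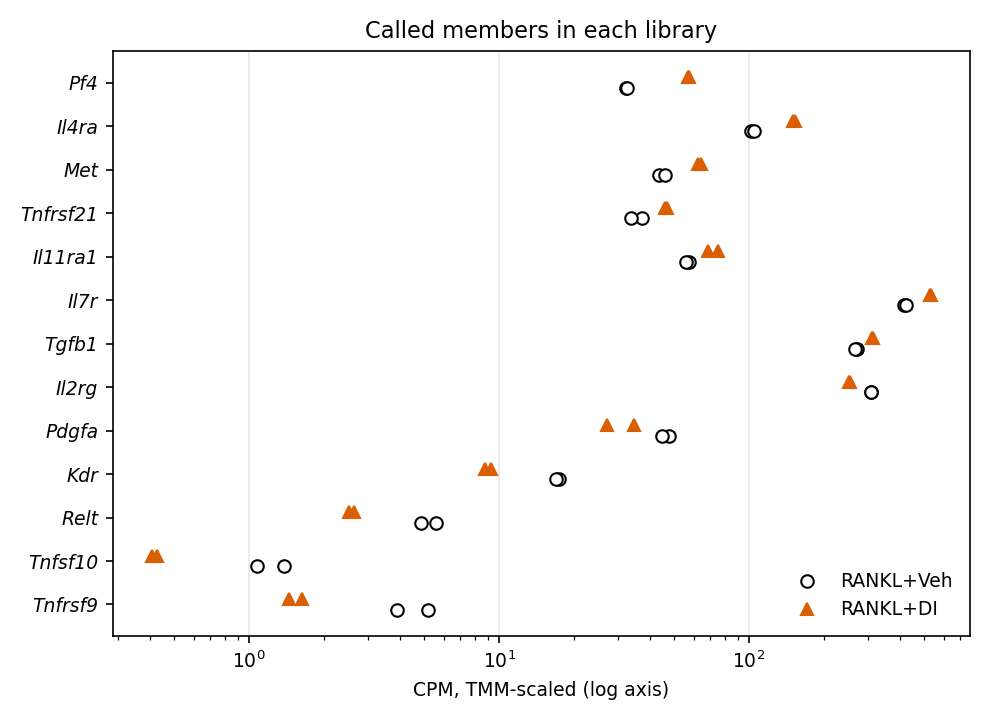
CPM on a log axis of the 13 members with an adjusted p under 0.05, with a triangle for each RANKL+DI and a circle for each RANKL+Veh library. RANKL+DI and RANKL+Veh libraries do not overlap for any of them, and group means run from 0.417 CPM (Tnfsf10 with DI) to 532 CPM (Il7r with DI).

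The receptors of the common gamma chain family held the most abundant members, and they did not move in one direction. Il7r, the alpha chain shared by the receptors for IL-7 and TSLP, had the highest level of all members, with a mean of 148 FPKM, a unit per length of transcript. Its counts were 9110 and 10006 with DI against 7774 and 7059 with vehicle. After scaling these were 532 ± 2.04 CPM (SD, n = 2) and 420.3 ± 4.57 CPM (SD, n = 2), so that both libraries with DI were above both with vehicle. This gave a log2 fold change of 0.34 (SE 0.034, edgeR adjusted p = 0.00300). Il7r is at chr15:9506161-9529876 (ENSMUSG00000003882) on GRCm38, the build on which all positions here are given.

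Il4ra, the chain that binds IL-4 and takes part in the receptors for IL-4 and IL-13, had 2627 and 2817 counts with DI against 1897 and 1741 with vehicle. The means were 152 ± 1.99 and 103 ± 1.90 CPM (SD, n = 2 each), and the groups were apart by far more than either spread. The gene (ENSMUSG00000030748, chr7:125552120-125579474) was 1.47-fold higher with DI, with a log2 fold change of 0.56 (SE 0.044, edgeR adjusted p = 0.00148). Il21r, its neighbour on the same chromosome (chr7:125603429-125633570), had a log2 fold change of -0.04 (SE 0.072, edgeR adjusted p = 0.787) with overlapping groups.

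Il2rg, the common gamma chain itself, is the shared subunit with which both Il7r and Il4ra pair, and it fell. Its counts were 4339 and 4715 with DI against 5751 and 5129 with vehicle, or 252 ± 0.940 and 308 ± 0.569 CPM (SD, n = 2 each). Its log2 fold change was -0.29 (SE 0.036, edgeR adjusted p = 0.00563). Il2rg lies at chrX:101264378-101268255 (ENSMUSG00000031304), and a predicted gene on the same strand, Gm20489, covers 30.5% of its exonic bases and held a mean of 0.25 counts.

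The other chains of these receptors did not pass. Crlf2, the TSLP receptor chain, had 763 and 846 counts with DI against 771 and 634 with vehicle (log2 fold change 0.17, SE 0.071, edgeR adjusted p = 0.169). Il13ra1, which joins Il4ra in the IL-13 receptor, had 332 and 326 against 284 and 257 counts (0.26, SE 0.10, edgeR adjusted p = 0.152). Il15ra was low and its groups overlapped, with 53 and 38 against 79 and 41 counts. Il2ra, Il2rb and Il9r had at most 2 counts in any library.

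Ligands for the same receptors were scarce in these cells, apart from Il15 at a mean of 7.31 FPKM. Il15 was the most abundant, with 239 and 273 counts with DI against 240 and 241 with vehicle and a log2 fold change of 0.06 (SE 0.11, edgeR adjusted p = 0.765). Il7 had 18 and 23 against 26 and 19 counts, Il4 8 and 7 against 6 and 6, and Tslp at most 3 in any library. Il2, Il9, Il13 and Il21 had 0 counts in all 4 libraries, where 3 counts, taken as the limit that a count of 0 allows, correspond to between 0.160 and 0.180 CPM. These limits cover counting error only.

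The TNF superfamily was the largest family, with 39 members of which 20 were tested, 1 higher and 3 lower. Tnfrsf9 (4-1BB), a costimulatory receptor that binds TRAF adaptors, had the most negative log2 fold change of all tested members. Its counts were 28 and 27 with DI against 97 and 65 with vehicle, and the means were 1.53 ± 0.135 and 4.55 ± 0.922 CPM (SD, n = 2 each). Both libraries with DI were low and close together, whereas the vehicle libraries differed from each other. Tnfrsf9 (ENSMUSG00000028965, chr4:150914562-150946102) was 2.97-fold lower with DI, with a log2 fold change of -1.57 (SE 0.25, edgeR adjusted p = 0.0115). Without RANKL+Veh replicate 1 the log2 fold change was -1.34 and the edgeR adjusted p was 0.0573. Its ligand Tnfsf9 had 134 and 165 against 159 and 127 counts, with overlapping groups and a log2 fold change of 0.04 (SE 0.14, edgeR adjusted p = 0.887).

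Relt, a receptor of this superfamily found mainly in blood cells, was also low. It had 45 and 47 counts with DI against 104 and 81 with vehicle, or 2.56 ± 0.0813 and 5.22 ± 0.509 CPM (SD, n = 2 each). The log2 fold change was -1.03 (SE 0.18, edgeR adjusted p = 0.0165), which is 2.04-fold lower at chr7:100845848-100863446 (ENSMUSG00000008318). Without RANKL+Veh replicate 1 or 2 the edgeR adjusted p was 0.0877 or 0.0504. The predicted gene Gm20949 is 96.2% identical to Relt over 86.2% of the transcript, so reads between these genes may have been divided and the value is uncertain.

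Tnfsf10 (TRAIL), a ligand of death receptors, had 7 and 8 counts with DI against 20 and 23 with vehicle. These were 0.417 ± 0.0133 and 1.23 ± 0.217 CPM (SD, n = 2 each) at chr3:27317028-27342427 (ENSMUSG00000039304). Its log2 fold change was -1.53 (SE 0.38, edgeR adjusted p = 0.0482), a value just under the threshold at a level near the detection limit. With each library left out in turn, the edgeR adjusted p lay between 0.107 and 0.197. The mouse TRAIL receptor Tnfrsf10b had 260 and 246 against 199 and 191 counts, with a log2 fold change of 0.35 (SE 0.12, edgeR adjusted p = 0.115), and the decoy receptor Tnfrsf11b had at most 9 counts in any library.

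Tnfrsf21 (death receptor 6) was the member of the superfamily that rose. It had 806 and 863 counts with DI against 693 and 560 with vehicle, or 46.5 ± 0.659 and 35.4 ± 2.53 CPM (SD, n = 2 each). The log2 fold change was 0.39 (SE 0.075, edgeR adjusted p = 0.0216) at chr17:43016555-43089188 (ENSMUSG00000023915). The adjusted p was 0.0564, 0.0542 and 0.0736 in edgeR fits without RANKL+DI replicate 1, RANKL+DI replicate 2 and RANKL+Veh replicate 2.

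Tnf itself, the inflammatory cytokine that can act with RANKL on osteoclast precursors, had nearly equal levels. Its counts were 437 and 436 with DI against 453 and 402 with vehicle, with means of 24.3 ± 1.56 and 24.2 ± 0.130 CPM (SD, n = 2 each) and a log2 fold change of 0.01 (SE 0.085, edgeR adjusted p = 0.970). Ltbr, the lymphotoxin beta receptor, just missed the threshold, with 1219 and 1290 against 1129 and 949 counts and a log2 fold change of 0.25 (SE 0.063, edgeR adjusted p = 0.0515). Tnfsf4 (OX40 ligand) had 148 and 208 against 127 and 103 counts and a log2 fold change of 0.60 (SE 0.17, edgeR adjusted p = 0.0656). Ltbr passed in 3 of 10 alternatives (DESeq2 size factors, no filter, a minimum of 10 counts) and Tnfsf4 in 2 (no filter, without RANKL+DI replicate 1). Tnfsf12 (TWEAK) was abundant at a mean of 43.1 FPKM, with 1325 and 1317 against 1153 and 1120 counts and a log2 fold change of 0.19 (SE 0.076, edgeR adjusted p = 0.157). An annotated readthrough gene, Tnfsfm13, covers 48.3% of the exonic bases of Tnfsf12, so its reads cannot be assigned with certainty. Tnfsf11, the gene of RANKL, had 3 counts in RANKL+Veh replicate 1 and 0 elsewhere.

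**Figure D2:**
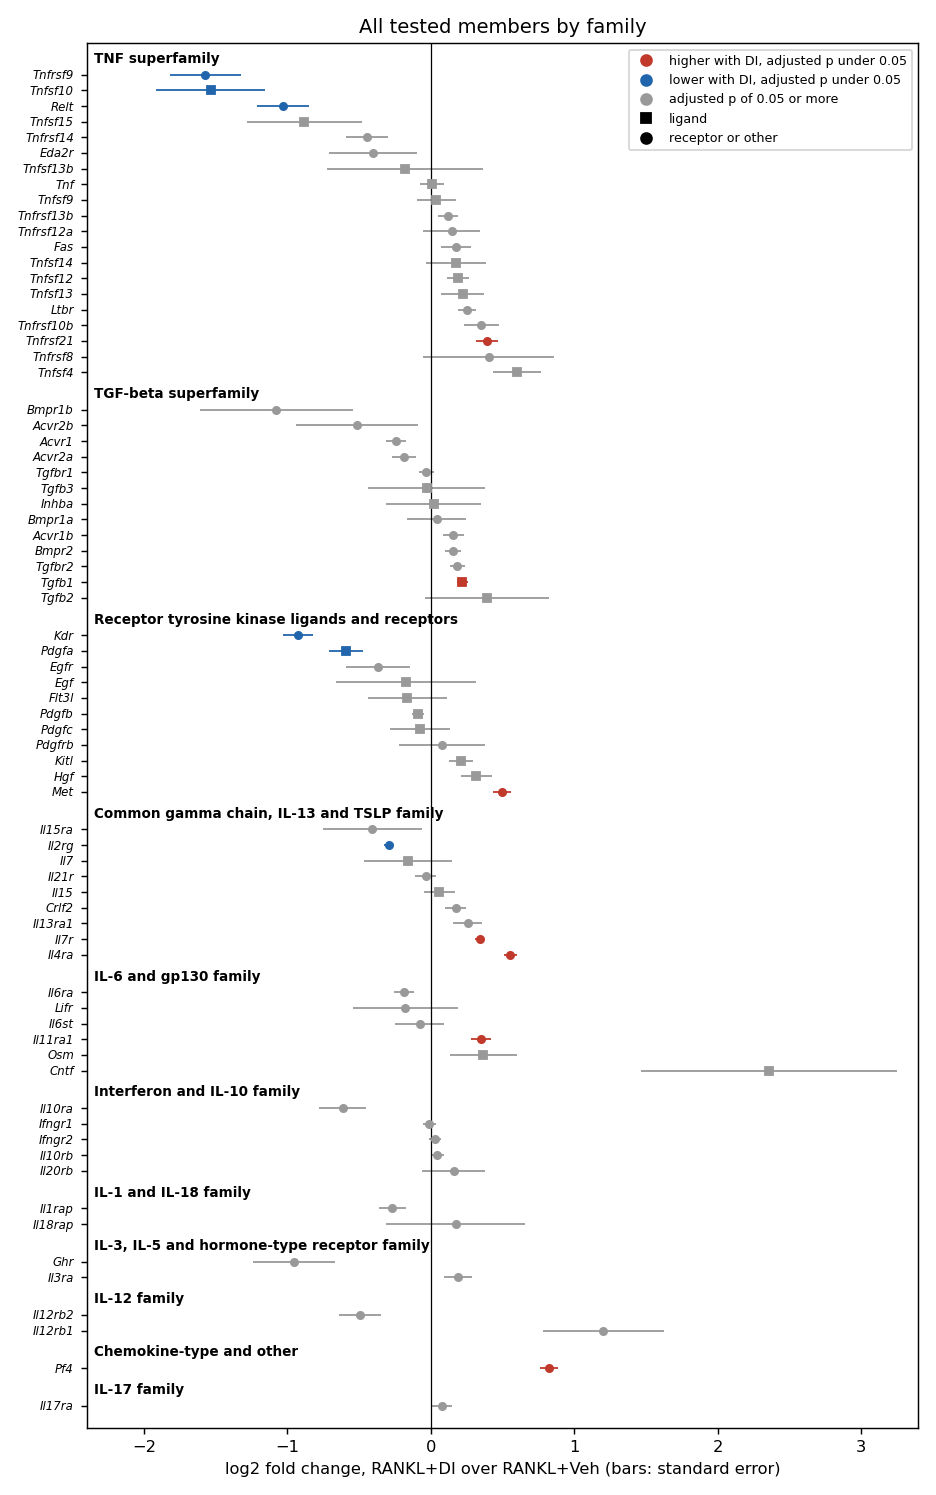
Log2 fold change (RANKL+DI over RANKL+Veh) with its SE for the 72 tested members, ordered by family, with members that passed the test in colour. Most points lie near 0, and the members that passed run from -1.57 (Tnfrsf9) to 0.83 (Pf4). Cntf, at the right end of the axis, has few counts and its fitted value is no measure of size.

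Among the receptor tyrosine kinases and their ligands, Met rose while Kdr and Pdgfa fell. Met, the receptor of hepatocyte growth factor, had 1104 and 1173 counts with DI against 814 and 768 with vehicle, or 63.4 ± 1.24 and 44.9 ± 1.70 CPM (SD, n = 2 each). Met had a log2 fold change of 0.50 (SE 0.064, edgeR adjusted p = 0.00612) at chr6:17463800-17573980 (ENSMUSG00000009376). Hgf, its ligand, was higher in both libraries with DI than in both with vehicle, with 338 and 379 against 277 and 286 counts, but its log2 fold change of 0.32 (SE 0.11) did not pass (edgeR adjusted p = 0.107).

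Kdr (VEGF receptor 2) had 159 and 165 counts with DI against 323 and 282 with vehicle. The means were 9.03 ± 0.328 and 17.1 ± 0.289 CPM (SD, n = 2 each), with little spread within either group. The gene (ENSMUSG00000062960, chr5:75932827-75978458) was 1.90-fold lower with DI, with a log2 fold change of -0.92 (SE 0.10, edgeR adjusted p = 0.00404). Of the other VEGF receptors, Flt4 had at most 4 counts in any library and is no tested member.

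Pdgfa, a ligand of the PDGF receptors, had 594 and 509 counts with DI against 892 and 750 with vehicle, or 30.9 ± 5.27 and 46.4 ± 2.02 CPM (SD, n = 2 each). The log2 fold change was -0.59 (SE 0.12, edgeR adjusted p = 0.0267) at chr5:138976014-138997370 (ENSMUSG00000025856), and the adjusted p was 0.100 and 0.0645 in edgeR fits without RANKL+Veh replicate 1 and 2. The antisense gene 6330403L08Rik covers 26.1% of the exonic bases of Pdgfa, and since no source says whether reads were counted by strand, those of this pair cannot be told apart. The related ligand Pdgfb was more abundant and almost level, with 2025 and 2180 against 2302 and 2087 counts and a log2 fold change of -0.09 (SE 0.043, edgeR adjusted p = 0.239). Pdgfra, the receptor for PDGF-A, had at most 7 counts in any library.

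In the TGF-beta superfamily, 13 of 21 members were tested and Tgfb1 alone passed. Tgfb1, a regulator of bone turnover and of inflammation, had 5351 and 5853 counts with DI against 5049 and 4408 with vehicle, or 312 ± 0.285 and 268 ± 4.53 CPM (SD, n = 2 each). The change was small, 1.16-fold, with a log2 fold change of 0.22 (SE 0.037, edgeR adjusted p = 0.0149) at chr7:25687002-25705077 (ENSMUSG00000002603). With scaling by library size only the log2 fold change was 0.12 and the edgeR adjusted p 0.0807, and the adjusted p was 0.0607 in the edgeR fit without RANKL+Veh replicate 2 and did not fall under the threshold of 0.05 without RANKL+DI replicate 2. Tgfbr1, its signalling receptor, had overlapping groups with 4154 and 4503 against 4398 and 4278 counts (log2 fold change -0.03, SE 0.051, edgeR adjusted p = 0.732). Tgfbr2, the subunit that binds the ligand, had 1762 and 1864 against 1630 and 1502 counts (0.19, SE 0.051, edgeR adjusted p = 0.0642). Of the 9 tested receptors of the superfamily 0 passed in edgeR or DESeq2, with 3 (Acvr1, Bmpr2 and Tgfbr2) at an unadjusted p under 0.05. At least 14.8% of all tested genes met that unadjusted limit.

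In the IL-6 and gp130 family, 6 of 14 members were tested and Il11ra1 passed. Il11ra1, the chain that binds IL-11, had 1294 and 1291 counts with DI against 1071 and 930 with vehicle, or 72.1 ± 4.62 and 56.6 ± 1.17 CPM (SD, n = 2 each). Il11ra1 had a log2 fold change of 0.35 (SE 0.069, edgeR adjusted p = 0.0246) at chr4:41699989-41769474 (ENSMUSG00000073889). The adjusted p was 0.0558 with scaling by library size only, and 0.0884, 0.0654 and 0.0937 in edgeR fits without RANKL+DI replicate 1, RANKL+Veh replicate 1 and RANKL+Veh replicate 2. Near-identical copies exist, Gm13305 (98.9% identity over the whole transcript) and Il11ra2 (99.0% over 73.5%), and both are listed at 0 counts, so the counting may have assigned their reads to Il11ra1 or left them out.

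Il6st (gp130), the signalling chain shared by this family, differed more between the vehicle libraries than between the groups, with 2587 and 2638 counts with DI against 2318 and 3056 with vehicle (log2 fold change -0.08, SE 0.17, edgeR adjusted p = 0.803). Its partner ligand Il11 had at most 3 counts in any library. Il6 had 2 counts in RANKL+Veh replicate 1 and 0 elsewhere. Cntf had 11 counts in both libraries with DI and 0 and 4 with vehicle, and 78.9% of its exonic bases overlap Zfp91 on the same strand, so no fold is given.

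Pf4 (platelet factor 4, also CXCL4), a chemokine that macrophages make as well as megakaryocytes, remained among the members because its symbol does not begin like those of other chemokines. It had the highest log2 fold change among the members that passed. Its counts were 982 and 1077 with DI against 600 and 541 with vehicle, or 57.3 ± 0.161 and 32.3 ± 0.191 CPM (SD, n = 2 each), with almost no spread within the groups. The log2 fold change was 0.83 (SE 0.062, edgeR adjusted p = 0.00129), or 1.77-fold, at chr5:90772435-90773383 (ENSMUSG00000029373).

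The receptors for interferon gamma and IL-10 were abundant, and 0 of the 5 tested members of their family passed in edgeR, with 1 (Il10ra) at an unadjusted p under 0.05, which DESeq2 called. Ifngr2 had 3405 and 3703 counts with DI against 3669 and 3185 with vehicle (log2 fold change 0.03, SE 0.040, edgeR adjusted p = 0.694). Ifngr1, the chain that binds the ligand, had 2116 and 2264 against 2229 and 2099 counts (-0.01, SE 0.048, edgeR adjusted p = 0.923). Il10rb, the chain shared by several receptors for IL-10-type cytokines, had 4011 and 4490 against 4152 and 3926 counts (0.05, SE 0.045, edgeR adjusted p = 0.563). These were among the most precisely measured members, with a small SE around a difference near 0. A gene on the same strand, Gm21970, covers 14.9% of the exonic bases of Il10rb and held a mean of 376.5 counts. The reads of Il10rb therefore cannot all be assigned with certainty.

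Il10ra, the chain specific to IL-10, stood apart from Il10rb in its point estimate. It had 766 and 693 counts with DI against 1339 and 881 with vehicle, or 40.8 ± 5.42 and 62.3 ± 13.4 CPM (SD, n = 2 each). The groups did not overlap, but the vehicle libraries were far apart, and the log2 fold change of -0.61 (SE 0.16) did not pass (edgeR adjusted p = 0.0582). Il10ra did pass, as lower, in 6 of 10 alternatives: library size only, no filter on low counts, DESeq2, the replicate block, and without RANKL+DI replicate 1 or RANKL+Veh replicate 2. The difference between these genes was not tested. Il10 itself is not among the members. All 21 ligands of the interferon and IL-10 family that are members, Ifnb1 and Ifng included, had 0 counts in the 4 libraries.

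The remaining families had 7 tested members, of which 0 passed in edgeR or DESeq2 and 4 (Ghr, Il12rb1, Il12rb2 and Il1rap) had an unadjusted p under 0.05. At least 14.8% of all tested genes met that unadjusted limit, and the exact share was not counted. For IL-12-type receptors, Il12rb1 had 21 and 26 counts with DI against 14 and 6 with vehicle (log2 fold change 1.20, SE 0.42, edgeR adjusted p = 0.119). Il12rb2 had 97 and 96 against 133 and 134 counts (-0.49, SE 0.15, edgeR adjusted p = 0.0781), and 40.0% of its exonic bases overlap Serbp1 on the other strand. Il12a and Il12b, the subunits of the cytokine, had 0 counts, and Il23a had at most 1. Il1rap, the accessory chain of the IL-1 receptor, had 352 and 372 against 427 and 428 counts (-0.27, SE 0.094, edgeR adjusted p = 0.119), and Il1a had at most 6 counts in any library.

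**Figure D3:**
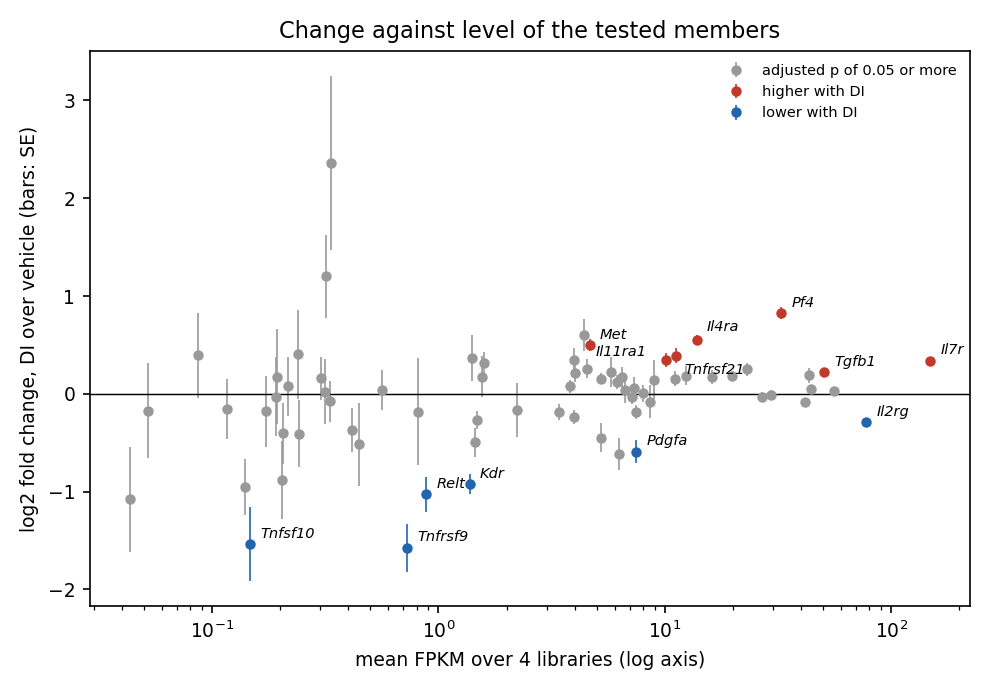
Log2 fold change with its SE against the mean FPKM of the 4 libraries (log axis) for the 72 tested members. The 7 members higher with DI have mean levels from 4.65 FPKM (Met) to 148 FPKM (Il7r), while 4 of the 6 lower members (Tnfsf10, Tnfrsf9, Relt and Kdr) lie below 1.4 FPKM.

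Among the members that passed, most that fell had a lower level than every member that rose. This difference in level was not tested, and it was not compared with that of all genes that passed. The 7 that rose had a mean of at least 4.65 FPKM, and of the 6 that fell Il2rg (77.4 FPKM) and Pdgfa (7.46 FPKM) were in that range. Kdr (1.37 FPKM), Relt (0.883 FPKM), Tnfrsf9 (0.725 FPKM) and Tnfsf10 (0.147 FPKM) were below it. As given above, the calls of Relt, Tnfrsf9 and Tnfsf10 depended on which libraries were kept, so the pattern of levels depends on them too. The log2 fold changes beyond 1 in size all belonged to tested members with a mean below 1 FPKM, where few counts make a fold imprecise. Among the pairs given above, no ligand and its receptor both passed. In many of them the partner had too few counts to be tested, so that both could not have passed. Il4ra with Il2rg and Il7r with Il2rg were the pairs of subunits that both passed, in opposite directions.

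Members with too few counts for the filter of the main fit numbered 107. Of these, 61 had 0 counts in all 4 libraries and 46 had some, with at most 13 counts in any library. They include Kit (5 and 0 counts with DI, 6 and 8 with vehicle), Il1r1 (2 and 9 against 10 and 11) and Tnfrsf4 (7 and 3 against 13 and 3). None had at most 3 counts in each library of one group and at least 10 in each of the other. The fit with no filter on low counts took in those with some counts, and none of them passed there. At this depth a small difference in these genes was not detectable.

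Downstream of the receptors, 31 of 32 listed signalling genes outside the members were tested. Of the 31, 3 fell while 0 rose with DI, in edgeR and in DESeq2. Over all 12590 tested genes, 7.70% fell and 7.14% rose in edgeR. The 3 that fell, Traf1, Traf2 and Birc3, belong to the 13 genes listed as TNF receptor adaptors and death signalling. Jak1, Tollip and Traf4 were higher at an unadjusted p under 0.05. Traf1, an adaptor that several TNF receptors recruit, had 812 and 769 counts with DI against 1542 and 1744 with vehicle, and its log2 fold change was -1.09 (SE 0.13, edgeR adjusted p = 0.00491). Traf2, which recruits the ubiquitin ligases of the complex, had 604 and 664 against 922 and 773 counts (-0.44, SE 0.067, edgeR adjusted p = 0.0105). Birc3 (cIAP2), such a ligase, had 1964 and 2248 against 2758 and 2356 counts (-0.31, SE 0.049, edgeR adjusted p = 0.0127). Without RANKL+Veh replicate 1, Traf1 kept an adjusted p under the threshold in edgeR (0.00415) and Traf2 (0.0527) and Birc3 (0.0611) did not. The 4 Janus kinases, which act below the interleukin receptors, the 7 IL-1 and IL-17 receptor adaptors and the 7 tested SMAD genes gave no call by either tool.

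The sequence upstream of the start site is shown for 4 members that passed, the 2 with the largest rise and the 2 with the largest fall among the 5 whose window holds no annotated exon. Each is 250 bases long and ends at the base before the RefSeq start on GRCm38.p6, 5′ to 3′ on the strand of the gene. The windows are chr5:90772185-90772434 (+) for Pf4, chr17:43016305-43016554 (+) for Tnfrsf21, chr4:150919905-150920154 (+) for Tnfrsf9 and chrX:101268256-101268505 (-) for Il2rg. Capitals mark a match to TGACNNNGC, the core of the antioxidant response element bound by NRF2, a factor that itaconate esters are known to activate.
Pf4: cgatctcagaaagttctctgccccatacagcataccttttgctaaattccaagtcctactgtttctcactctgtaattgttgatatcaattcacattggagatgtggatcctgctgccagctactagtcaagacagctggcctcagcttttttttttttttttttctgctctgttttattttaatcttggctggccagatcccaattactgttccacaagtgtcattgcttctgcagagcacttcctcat
Tnfrsf21: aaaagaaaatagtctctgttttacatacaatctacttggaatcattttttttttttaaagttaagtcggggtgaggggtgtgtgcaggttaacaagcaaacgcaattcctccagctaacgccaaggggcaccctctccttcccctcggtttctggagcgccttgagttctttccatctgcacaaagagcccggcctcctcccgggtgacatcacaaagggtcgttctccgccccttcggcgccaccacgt
Tnfrsf9: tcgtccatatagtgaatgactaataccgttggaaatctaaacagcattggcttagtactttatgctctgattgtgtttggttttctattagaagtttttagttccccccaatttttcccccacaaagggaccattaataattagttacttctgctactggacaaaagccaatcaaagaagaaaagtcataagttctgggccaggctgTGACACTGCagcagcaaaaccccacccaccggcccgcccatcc
Il2rg: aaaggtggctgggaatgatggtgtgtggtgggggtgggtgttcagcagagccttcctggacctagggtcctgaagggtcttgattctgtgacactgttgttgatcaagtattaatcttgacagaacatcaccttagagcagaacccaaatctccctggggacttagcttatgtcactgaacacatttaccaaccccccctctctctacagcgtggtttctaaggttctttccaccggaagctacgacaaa

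Searching both strands, the one match in these windows is TGACACTGC, 43 bases before the Tnfrsf9 start shown. No match was found there for GGG and CC with 5 free bases between them (NF-kB), a pair of GAAA with 2 free bases between them (interferon-stimulated response element), TTCNNNGAA (STAT) or TGANTCA (AP-1). Over all genes, the 250 bases before each RefSeq start were searched, and 58 of the 72 tested members had 70 such windows. Tnfrsf9 has 2 RefSeq starts, both inside the span of the deposited gene, and the window of the other (chr4:150927749-150927998), which is not printed, held the NF-kB, STAT and AP-1 letters and not TGACNNNGC. The TGACNNNGC letters were in 14 of the 70 member windows (20%) and in 10.2% of 32851 windows of all genes. They were present upstream of Il4ra and Met, which rose, and of Kdr, Pdgfa and Tnfrsf9, which fell. The NF-kB letters were in 62.9% of member windows and 45.8% of all windows, and TGANTCA was in 14.3% and 6.75%. The letters of the interferon-stimulated response element were in 4.29% and 2.98%. TTCNNNGAA went the other way, at 5.71% of member windows and 7.02% of all windows. The member windows are those of tested members only, whereas the windows of all genes include genes that were not tested here. Windows of all tested genes were not compared, so these shares are not for like sets. Matches overlap between letters in places and are a description of sequence, not of binding.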

How the data were processed

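RNA of 2 RANKL+DI and 2 RANKL+Veh libraries was sequenced from libraries prepared with an mRNA kit. For each gene and library the authors deposited a raw read count and an FPKM value, together with KEGG terms. A further deposited table with the same values was not used. The submitters' processing notes name the builds GRCm38 and mm10, and the aligner and counting program are not given in the sources used here. All 72 tested members were found in GENCODE M21, with equal start and end positions for 50.

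The quasi-likelihood test of edgeR 4.0.16 in R 4.3.3 compared the conditions with no further term, after TMM scaling (factors from 0.963 to 1.04) and the filterByExpr default, and p was adjusted by Benjamini-Hochberg over 12590 genes. Before moderation 2 residual degrees of freedom were left. CPM are on the TMM scale, and FPKM served only for levels between genes. Depth was from 16085692 to 19403480 counts per library, and 3 counts were taken as the floor. Replicates differed by more than counting noise (chi-square per degree of freedom 7.57 and 7.74). Overlapping exons were taken from GENCODE M21, and near-identical transcripts (at least 95% identity over at least 20%) were found with BLAST+ 2.17.0. The steps were tested on simulated data.

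Named members are those with an adjusted p under 0.05, the 10 with the highest FPKM and the ligand or receptor partners of the former. The members and lists were chosen with earlier results of these data known, and the partner pairs, the motifs, the choice of promoters and the other members named were chosen after their values were seen. Alternatives were DESeq2 size factors, library size only, no filter, a minimum of 10 counts in all libraries, DESeq2 1.42.0 (Wald test), a replicate block and each library left out. Promoters are from RefSeq (GRCm38.p6). A marker gene is not reported here.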

Additional observations from a re-analysis of the deposited data

How the results depend on the processing

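Of the 13 members that passed, Pf4, Il4ra, Il7r, Kdr, Il2rg and Met passed under all 10 alternatives, 7 lost the call under at least 1, and none changed direction. With scaling by library size only, 13 members were lower, and the log2 fold changes of Ifngr2 (-0.075), Il10rb (-0.058), Il15 (-0.043) and Tnfsf9 (-0.064) turned negative, while Pdgfb passed (-0.19, edgeR adjusted p = 0.0302). Leaving out each library in turn gave 8 to 12 members called, 4 to 6 higher and 3 to 6 lower, and 1 to 4 lower signalling genes. Over the same fits the log2 fold change ran from -0.047 to 0.029 for Ifngr1, -0.049 to 0.12 for Tnfsf9, -0.023 to 0.15 for Il15, -0.73 to 0.048 for Il15ra, -0.092 to 0.025 for Il21r, -0.33 to 0.23 for Il6st and -0.092 to 0.031 for Tgfbr1, and Il6st passed without RANKL+Veh replicate 1 (-0.33, edgeR adjusted p = 0.0401). The cause was not tested. Over all genes, 1868 passed, against 1120 and 1087 without RANKL+Veh replicate 1 and 2.

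Deviations of same-numbered libraries from their group means were almost uncorrelated (r = -0.03 over 12590 genes, which are not independent replicates). With 2 libraries in each group, this value cannot decide whether the numbers pair the samples. With a replicate block 13 members passed, 7 higher and 6 lower, with Il10ra in place of Tnfsf10. Tnfsf10 could not be tested with a minimum of 10 counts in every library, and its DESeq2 adjusted p is not defined. With 2 libraries in each group, no group was large enough for a check of outlying libraries, and members with few counts are limited by depth.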
